A study of Mus musculus with 30 samples.

Results

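Histone H3 acetylated at lysine 27 (H3K27ac), which is found at active promoters and enhancers, was examined at 10 genes of the cell cycle and the p53 pathway: Trp53, Mdm2, Cdkn1a, Cdkn2a, Cdkn2b, Ccnd1, Ccnd2, Ccne1, Cdk6 and Rb1. They were taken by name from the 21951 protein-coding genes of the GENCODE mouse annotation, by a rule that uses no measured value, although earlier results of these data were known when the genes were proposed. A gene was counted as having a promoter peak in a list when any peak came within 2.5 kb of any of its annotated start sites. The 10 genes have 47 annotated starts, and peaks within 50 kb of each gene were described as well.

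The study treated mouse lung adenocarcinoma cells with UNC0638, which blocks the H3K9 methyltransferases G9a and Glp, and asked how these enzymes affect tumor-propagating cells. Of its 30 samples, 9 were H3K27ac chromatin immunoprecipitation and sequencing (ChIP-seq) samples, in 4 groups: CK1750 cells with DMSO (the solvent) or with 1 µM UNC0638, and Tnm2 cells with DMSO or with 1 µM UNC0638. The labels give 3 samples for CK1750 with DMSO, 1 of them a second sequencing run, and 2 for each other group; both CK1750 samples with UNC0638 carry the same replicate number. CK1750 and Tnm2 are cultured mouse lung adenocarcinoma lines. The genotype of neither line is given in the sources used here, so a peak at Trp53 or Cdkn2a says nothing of the allele that the line carries.

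Each group was represented by 1 merged list of peaks, so no value below has a spread between replicates and no difference was tested. The CK1750 lists held 27367 peaks with DMSO and 24601 with UNC0638, the Tnm2 lists held 30641 and 18794, and their sequencing depth is unknown. The score of a peak is minus 10 times the base-10 logarithm of the peak caller's P value, with a minimum of 50 at the cutoff of 1e-05. Because scores change with depth, they were compared only as percentiles within a list, where 100 stands for the highest score. Of 6 epithelial markers, Cdh1, Krt8, Krt18 and Krt19 had a promoter peak in all 4 lists and Epcam and Cldn4 in none. Of 6 lung markers, Nkx2-1, Foxa1, Foxa2 and Sftpc had one in all 4 lists, Sftpb in Tnm2 with UNC0638 alone and Napsa in none. None of 4 blood markers had one in any list, and the endothelial marker Pecam1 had one in both Tnm2 lists. Median best promoter percentile over the coding genes with a promoter peak was 77.2, 74.1, 77.3 and 69.1, and wherever 4 values follow each other below they stand in this order: CK1750 DMSO, CK1750 UNC0638, Tnm2 DMSO, Tnm2 UNC0638.

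Passage from G1 to S phase of the cell cycle is driven by D-type cyclins with Cdk4 or Cdk6 and by cyclin E with Cdk2, which phosphorylate the retinoblastoma protein Rb1 and free E2F transcription factors. Cyclin-dependent kinase inhibitors oppose these kinases: Cdkn1a encodes p21, Cdkn2b encodes p15Ink4b, and Cdkn2a encodes p16Ink4a and, from a separate first exon, p19Arf. p53, the product of Trp53, activates Cdkn1a and Mdm2 after damage, Mdm2 targets p53 for degradation, and p19Arf restrains Mdm2. Both arms are commonly inactivated in lung adenocarcinoma.

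The sequences below are shown because they belong to the kinase inhibitor promoters that ranked lower or had no peak in Tnm2 and to the 1 gene that had no promoter peak in any list. They are RefSeq promoters on build GRCm38.p6, each 300 bases long with 250 bases before the start. Capitals mark the Sp1 letters GGGCGG and the E2F letters TTTCCCGC, TTTGGCGC or TTTCGCGC on either strand; the E2F and Sp1 letters do not overlap in them. The windows are Cdkn1a at chr17:29093519-29093818 (plus strand), the Arf promoter of Cdkn2a at chr4:89294570-89294869 (minus strand), Cdkn2b at chr4:89310983-89311282 (minus strand) and Ccne1 at chr7:38107441-38107740 (minus strand).
Cdkn1a: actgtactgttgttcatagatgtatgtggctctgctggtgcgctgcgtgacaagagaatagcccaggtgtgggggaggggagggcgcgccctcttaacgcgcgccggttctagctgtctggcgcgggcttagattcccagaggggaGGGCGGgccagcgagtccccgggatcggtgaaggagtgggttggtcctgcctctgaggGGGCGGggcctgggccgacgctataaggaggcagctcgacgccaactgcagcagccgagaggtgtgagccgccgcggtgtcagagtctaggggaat
Cdkn2a Arf: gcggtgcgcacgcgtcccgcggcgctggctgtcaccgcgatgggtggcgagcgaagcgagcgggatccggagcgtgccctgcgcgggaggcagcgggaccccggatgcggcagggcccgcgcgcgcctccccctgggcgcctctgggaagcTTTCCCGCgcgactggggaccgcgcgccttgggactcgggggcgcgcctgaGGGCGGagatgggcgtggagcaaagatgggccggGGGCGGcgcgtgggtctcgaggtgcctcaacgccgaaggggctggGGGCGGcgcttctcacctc
Cdkn2b: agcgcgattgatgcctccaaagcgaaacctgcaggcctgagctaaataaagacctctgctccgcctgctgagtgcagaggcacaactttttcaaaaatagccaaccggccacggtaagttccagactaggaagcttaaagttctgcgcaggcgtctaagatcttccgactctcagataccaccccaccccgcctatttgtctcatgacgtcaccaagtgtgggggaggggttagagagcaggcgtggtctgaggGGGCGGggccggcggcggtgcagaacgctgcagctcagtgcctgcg
Ccne1: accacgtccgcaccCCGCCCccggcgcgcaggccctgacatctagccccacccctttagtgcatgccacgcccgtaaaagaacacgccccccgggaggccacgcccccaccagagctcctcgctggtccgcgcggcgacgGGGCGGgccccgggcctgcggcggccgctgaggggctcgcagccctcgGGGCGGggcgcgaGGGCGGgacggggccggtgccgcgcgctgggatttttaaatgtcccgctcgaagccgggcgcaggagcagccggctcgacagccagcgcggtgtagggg

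The promoter table held 9 promoters of 7 of the 10 genes, and Ccnd1, Ccnd2 and Rb1 were not matched. E2F letters were in 1 of the 9, the Arf promoter, at position -99 from the start, against 1.84% of all 32851 promoters in the table. Sp1 letters were in 6 of the 9, against 35.7% of all. The Arf promoter held 45 CpG dinucleotides, Ccne1 41, Cdkn1a 23 and Cdkn2b 18, where the median promoter held 7.

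A promoter peak was present at 9, 9, 9 and 7 of the 10 genes. Over all coding genes the shares were 50%, 49.1%, 49.4% and 41.3%. Of the 10 genes, 7 (Trp53, Mdm2, Cdkn2b, Ccnd1, Ccnd2, Cdk6 and Rb1) had one in all 4 lists, as did 39.2% of coding genes. Cdkn1a and Cdkn2a had one in every list but Tnm2 with UNC0638, a pattern shared by 5.99% of coding genes. Ccne1 had none in any list, as did 46% of coding genes. Among genes with a promoter peak, the median percentile of the best one was 85.7, 85.5, 88.8 and 81.4, in each list above the median over all coding genes.

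**Figure D1:**
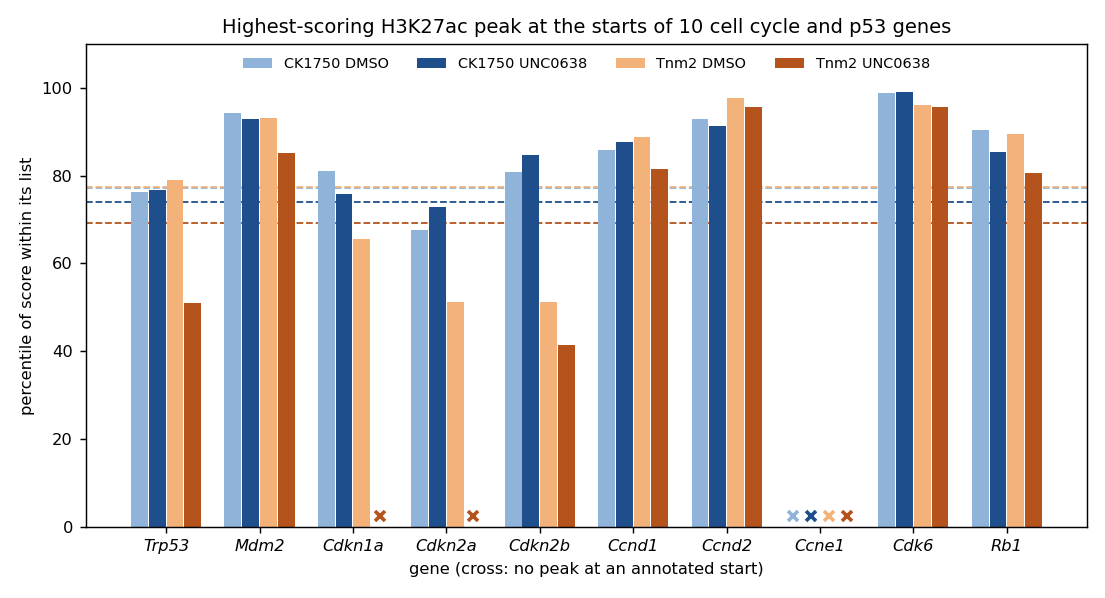
Percentile of score, within its list, of the highest-scoring H3K27ac peak within 2.5 kb of a start of each gene, 1 bar per list and no error bars because each group has 1 list. Crosses mark genes with no such peak, and dashed lines the median over all coding genes with a promoter peak in that list; Cdk6 stands highest or near it in each list, and Cdkn1a and Cdkn2a have crosses in Tnm2 with UNC0638 alone.

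Trp53 encodes p53. Its promoter peak scored 492, 555, 426 and 122, at percentiles 76.3, 76.8, 78.9 and 50.9. It therefore stood close to the coding-gene median in 3 lists and below it in Tnm2 with UNC0638. In CK1750 with DMSO the peak (chr11:69579713-69582118, mm10) ran from 646 bases before the start, in exon 1 and intron 1, to 1759 bases after it. In Tnm2 with UNC0638 the same interval held a peak over the start with a score of 78.8 and a peak inside intron 1 with a score of 122. The start of Wrap53, the neighbor transcribed in the opposite direction, lay within 2.5 kb of each of these peaks, so the peaks cannot be assigned to 1 of the 2 genes. By best promoter peak, the difference of -28.0 percentile points with UNC0638 was the only fall of 10 points or more among the 7 genes with a peak in both Tnm2 lists. Of coding genes, 48.5% fell by as much.

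Mdm2 encodes the ubiquitin ligase that limits p53, and is itself a p53 target. Its promoter peak scored 1832, 1490, 1049 and 366, at percentiles 94.3, 92.9, 93.2 and 85.2. In every list the peak was above the coding-gene median, and in every list it covered 7 of the 8 annotated starts, those at exons 1 to 3. An upstream region between -7884 and -6155 bp of the start (chr10:117716913-117718642), at no annotated start, was also marked in all 4 lists, at percentiles 64.0, 49.6, 79.4 and 63.8.

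Cdkn1a, which encodes the kinase inhibitor and p53 target p21, was marked beside its second promoter and not at its first. The peak scored 646, 526 and 235 in the first 3 lists, at percentiles 81.0, 75.8 and 65.5, and there was none in Tnm2 with UNC0638. In CK1750 with DMSO it lay at chr17:29093810-29095438, in intron 1 of the longer transcript. Its edge was 41, 227 and 269 bp beyond the start at position 29093769, and the nearest peak in Tnm2 with UNC0638 was 39409 bp from that start. A start of AC167363.2, which is not a protein-coding gene, lay within 2.5 kb of the Cdkn1a peak in each list that held it. The peak cannot be assigned to either gene alone. Of genes whose best promoter peak in Tnm2 with DMSO was within 5 percentile points of that of Cdkn1a, 14.9% had none with UNC0638.

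The first Cdkn1a start, at position 29090979, was 2831, 3017, 3059 and 36619 bp from the nearest peak. A sequence with 1 mismatch to the p53 response element consensus (2 half-sites with 0 to 13 bases between them, either strand) lies at chr17:29090928-29090947, at -51 bp from that start. It is shown from the same genome with its flanks and the element in capitals.
Cdkn1a p53 element: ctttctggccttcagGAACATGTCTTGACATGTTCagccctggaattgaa
No list had a peak over it: the nearest was 2863, 3049, 3091 and 36568 bp away. An overlapping pair of half-sites with no mismatch and 12 bases between them was found at chr17:29090906-29090937. Elements with no mismatch were in 1.66%, and with at most 1 mismatch in 14.5%, of 32812 promoter windows of 5001 bp searched. The search covered the windows of the 9 promoters, of 7 of the 10 genes, in the promoter table, and not Ccnd1, Ccnd2 and Rb1. Its only other match was an element with 1 mismatch 3′ of the Ink4a start of Cdkn2a (chr4:89279767-89279789).

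**Figure D2:**
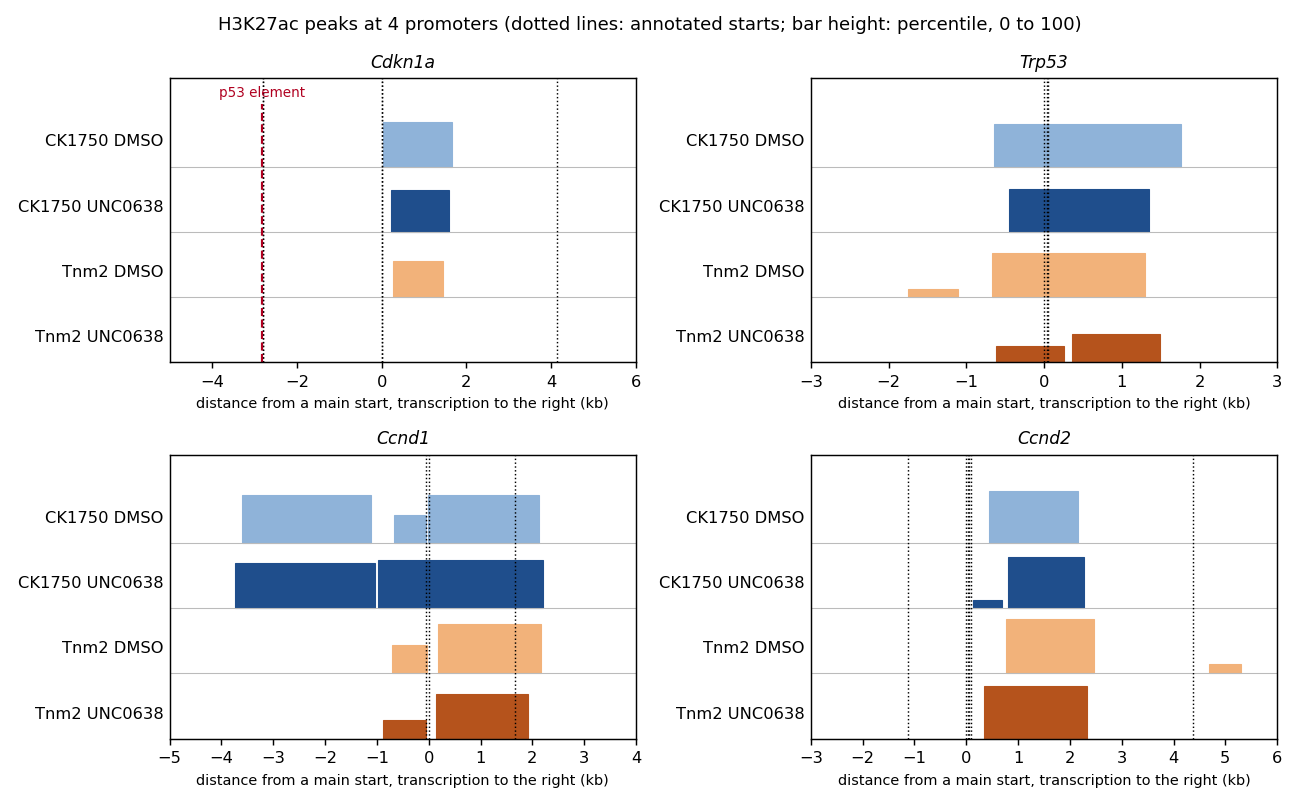
H3K27ac peaks around the starts of Cdkn1a, Trp53, Ccnd1 and Ccnd2; the x axis is the distance in kb from a main start with transcription to the right, each row is a list, and the height of a bar is the percentile of score in that list, from 0 to 100. The Cdkn1a peaks begin after the second start and away from the p53 element, Trp53 is covered in 2 pieces in Tnm2 with UNC0638, the upstream Ccnd1 peak is in the CK1750 lists alone, and the Ccnd2 peaks lie after the main starts.

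Cdkn2a was marked at its Arf exon. The peak over the Arf start (position 89294653) scored 316, 452 and 145 in the first 3 lists, at percentiles 67.6, 72.8 and 51.2, and there was none in Tnm2 with UNC0638. Thus the gene ranked below the coding-gene median in each of the 3 lists that held the peak. The Ink4a start (position 89282192), which gives p16Ink4a, had no peak nearer than 11899 and 11857 bp in the CK1750 lists and 28090 bp in Tnm2 with UNC0638. In Tnm2 with DMSO a peak of 434 bp, with a score of 51.6, was 69 bp from it, just above the minimum score. Of genes with a DMSO percentile within 5 points of that of Cdkn2a, 40.4% had no promoter peak in Tnm2 with UNC0638.

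Cdkn2b, which encodes p15Ink4b, lies next to Cdkn2a and kept a promoter peak in all 4 lists. Its best promoter peak scored 641, 848, 145 and 98.9, at percentiles 80.9, 84.8, 51.1 and 41.4. The CK1750 values were above the coding-gene median and the Tnm2 values below it. The difference, Tnm2 minus CK1750, was -29.8 points with DMSO and -43.3 points with UNC0638, in each case the largest among the genes with a peak in both lines (9 with DMSO and 7 with UNC0638). The reference gene Gapdh ordered the lists in a like way, at percentiles 80.2, 78.3, 52.1 and 33.5. In CK1750 with DMSO 1 peak of 1409 bp covered the start, in Tnm2 with DMSO the window held 3 peaks of 902, 386 and 493 bp, and in Tnm2 with UNC0638 the 1 peak was 739 bp wide and began 19 bp after the start.

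The region upstream of Cdkn2b ordered the lines the other way. A distal region from -40921 bp of its start (chr4:89350758-89351960, peaks joined across lists) stood at percentiles 16.3, 8.94, 69.0 and 51.3. A further one (chr4:89359664-89360860) stood at 45.9, 30.2, 79.5 and 52.8. Both ranked higher in each Tnm2 list than in either CK1750 list, whereas the Cdkn2b and Arf starts ranked lower in Tnm2 or had no peak. Mtap, on the other side of Cdkn2a, had 2, 1, 1 and 0 promoter peaks.

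**Figure D3:**
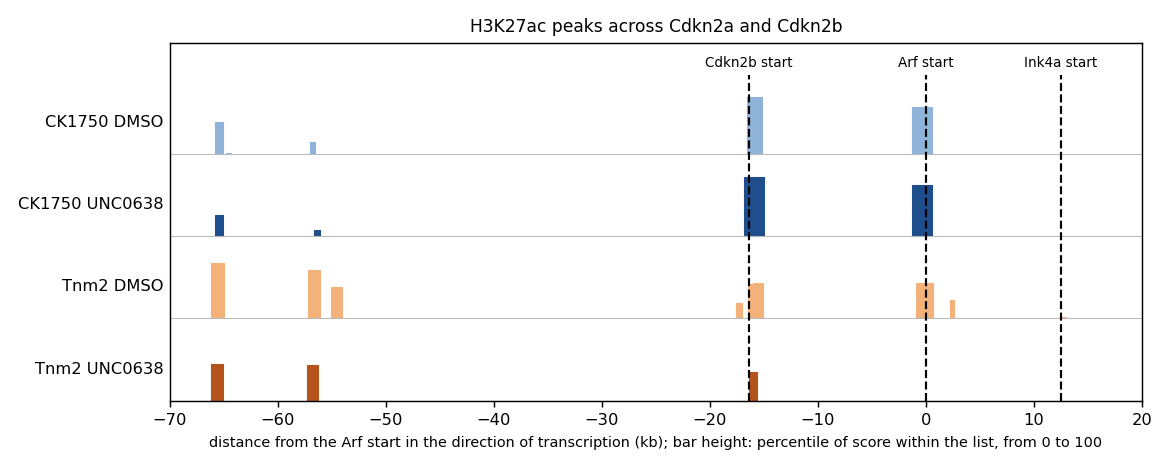
H3K27ac peaks across Cdkn2a and Cdkn2b by distance in kb from the Arf start, with transcription to the right; each row is a list and the height of a bar is the percentile of score in that list, from 0 to 100. The Arf start has a peak in 3 lists, the Ink4a start in Tnm2 with DMSO alone and with a low rank, and the peaks farthest upstream of Cdkn2b stand higher in Tnm2 than in CK1750.

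Ccnd1 encodes cyclin D1. Its best promoter peak scored 883, 1015, 745 and 311, at percentiles 85.7, 87.7, 88.8 and 81.4, above the coding-gene median in each list. A second large peak before the start (chr7:144940980-144943467 in CK1750 with DMSO) scored 883 and 703 in the CK1750 lists, at percentiles 85.7 and 81.4, and was in neither Tnm2 list. In CK1750 with DMSO this upstream peak was the best one, and the peak over the start scored 872, at percentile 85.6. Ccnd1 had 11, 10, 10 and 9 peaks within 50 kb, of which 7 in each list were distal, meaning at no annotated start. The distal region with the highest ranks, between -26285 and -24072 bp of the start (chr7:144963941-144966154), stood at percentiles 90.2, 92.7, 87.2 and 84.1.

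Ccnd2 encodes cyclin D2. Its peak scored 1590, 1315, 1930 and 755, at percentiles 93.0, 91.4, 97.8 and 95.6. It ranked higher in Tnm2 than in CK1750 under both treatments, by 4.77 points with DMSO and 4.23 points with UNC0638. In no list did a peak cover the main starts: measured from position 127151060, the best peak began 444, 795, 758 and 337 bp into the gene and reached intron 1 or beyond. A small peak with a score of 67.6 lay 122 bp from that start in CK1750 with UNC0638. A start of 9330179D12Rik, which is not a protein-coding gene, lay within 2.5 kb of the best Ccnd2 peak in each list. That peak cannot be assigned to either gene alone.

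Ccne1 encodes cyclin E1. No peak came within 2.5 kb of any of its 5 starts in any list. From the start at position 38107534 the nearest peak was 29357, 45892, 45766 and 75607 bp away, and 2, 1, 1 and 0 peaks lay within 50 kb of the gene. The flanking coding genes were marked: the best promoter peak of Uri1 stood at percentiles 91.9, 87.7, 87.6 and 81.4, and that of 1600014C10Rik at 68.6, 60.3, 57.0 and 34.6. The Ccne1 promoter printed above is 76% G and C with 4 matches to the Sp1 letters. Of the 868 coding genes with a promoter of at least 41 CpG dinucleotides, 74.1% had a promoter peak in all 4 lists and 15.9% (138 genes) in none. A longer stretch around the start of the printed promoter, at position 38107490, and not the printed sequence itself, was aligned to the main chromosomes. It had 0 further copies over most of its length.

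Cdk6, the kinase partner of D-type cyclins, had the highest rank of the 10 genes in 3 lists and was second to Ccnd2 in Tnm2 with DMSO. Its best promoter peak scored 3100, 3100, 1490 and 769, at percentiles 98.8, 99.04, 96.2 and 95.8. A value of 3100 is a score at which peaks pile up, with 558, 371, 169 and 10 peaks holding it, so higher scores cannot be ranked well. The peak was also wide, at 4571, 5060, 1872 and 4482 bp, and in Tnm2 with DMSO a second peak of 2939 bp followed it. There the best peak covered the upstream start at position 3341485 and not the main start at position 3343893. The second peak covered the main start and scored 547, at percentile 83.7. In the other lists a single peak spanned both starts, so the percentile of 96.2 is not that of the main start. In each list the stretch covered began between -3584 and -3379 bp of the start and ended in intron 2.

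Distal peaks around Cdk6 differed in number between lists. The gene had 16, 16, 21 and 6 peaks within 50 kb, of which 13, 13, 15 and 3 were distal, over 22.6, 27.4, 21.1 and 11.0 kb. Tnm2 with UNC0638 held 18794 peaks in all against 30641 with DMSO, and 43.4% of joined DMSO regions over the genome were absent from it. No genome-wide share was computed for distal peaks, so whether these counts are particular to Cdk6 was not tested. A set of 3 upstream regions was in all 4 lists and ranked lowest in Tnm2 with UNC0638. The farthest (chr5:3299578-3302099, from -44315 bp of the start) stood at percentiles 78.5, 83.1, 77.7 and 48.8, the middle one (chr5:3305666-3307158) at 69.7, 76.8, 71.6 and 37.8, and the nearest (chr5:3320021-3323904) at 82.9, 88.3, 78.8 and 51.2. Inside the gene, a region in intron 4 at percentile 61.3 (chr5:3435805-3438097) was in CK1750 with DMSO alone, and regions in introns 2, 3 and 4 at percentiles 26.2, 44.1 and 23.8 were in CK1750 with UNC0638 alone.

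**Figure D4:**
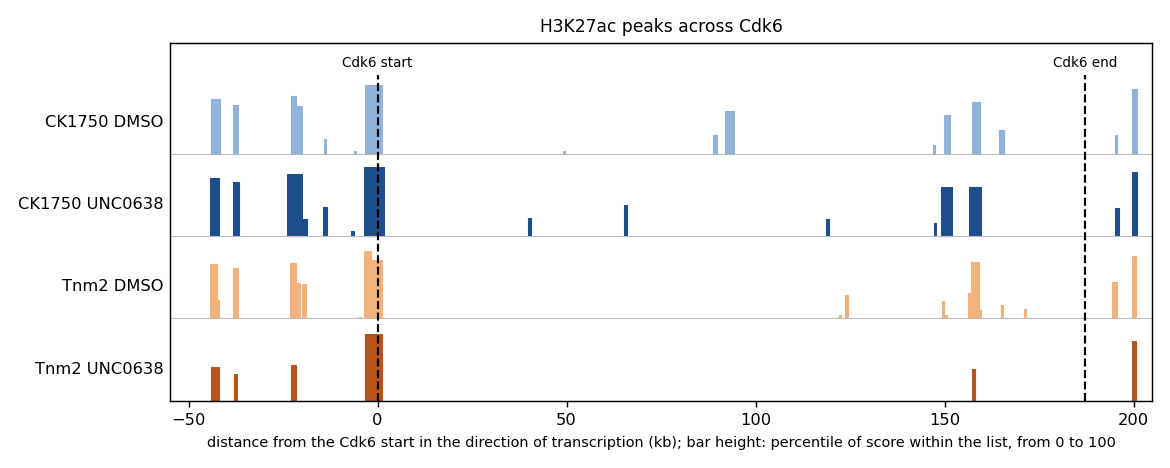
H3K27ac peaks across Cdk6 by distance in kb from its start, with transcription to the right; each row is a list and the height of a bar is the percentile of score in that list, from 0 to 100. The highest promoter bar is near the top in each row, and the row of Tnm2 with UNC0638 holds 6 peaks against 16, 16 and 21.

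Rb1 encodes the retinoblastoma protein, and 2 separate elements lay at its annotated starts. The peak over its main start scored 1247, 696, 470 and 299, at percentiles 90.4, 81.3, 80.8 and 80.5. The other one, in intron 17, scored 545, 888, 784 and 123, at percentiles 78.2, 85.5, 89.5 and 51.5. It lay at the start of a short Rb1 transcript and of Lpar6, a receptor gene inside the intron, and cannot be assigned to 1 of the 2. Because it was the higher of the pair in CK1750 with UNC0638 and in Tnm2 with DMSO, the best Rb1 promoter peak stood at 90.4, 85.5, 89.5 and 80.5. At the main start the Tnm2 ranks with DMSO and UNC0638 were within 1 point of each other, while at the intronic element they were far apart.

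Between treatments, the CK1750 ranks were close. The 9 genes with a promoter peak in both CK1750 lists differed by -5.26 to 5.20 percentile points with UNC0638, with a median of 0.25. By this measure none of the 9 moved by 10 points or more, where 19.4% of coding genes with a peak in both lists stood at least 10 points lower and 6.07% at least 10 points higher, and the median over them was -2.28. Other measures ended that count of 0: by peak width in place of score Trp53 differed by -14.4, Cdkn1a by -18.3 and Ccnd2 by -16.2 points, and ranked among promoter peaks alone Cdkn2a differed by 12.9 and Cdkn2b by 11.5 points. With equal numbers of peaks per list Cdkn2a differed by 11.6 points. The best Rb1 peak was a different element in each CK1750 list, and at its main start Rb1 differed by -9.12 points. None of the 9 lost its peak, against 4.85% of coding genes, and Ccne1 gained none, against 3.03% of those without one.

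In Tnm2 with UNC0638, 2 of the 9 genes with a promoter peak under DMSO (Cdkn1a and Cdkn2a) had none, against 17.7% of coding genes, and Ccne1 gained none, against 1.18%. The 7 genes with a peak in both lists all ranked lower by their best peak. The differences were -28.0 points for Trp53, -9.71 for Cdkn2b, -9.00 for Rb1, -7.95 for Mdm2, -7.42 for Ccnd1, -2.17 for Ccnd2 and -0.41 for Cdk6. The best Rb1 peak was the intronic element with DMSO and the main start with UNC0638. At the main start Rb1 differed by -0.22 points, and its intronic element stood at percentiles 89.5 and 51.5. The Cdk6 peak over the main start stood at 83.7 with DMSO and 95.8 with UNC0638. With equal numbers of peaks per list most of the differences in best peak were smaller: Trp53 -14.7, Mdm2 -3.66, Rb1 -2.41, Ccnd2 -0.77 and Ccnd1 -0.39 points, with Cdk6 turned to 2.02 and Cdkn2b to 21.1 points. By width in place of score Ccnd2 turned to 3.44 and Cdk6 to 1.49 points. By that measure Cdkn2b differed by -35.7, Trp53 by -33.9, Mdm2 by -21.3, Rb1 by -16.0 and Ccnd1 by -6.09 points. Ranked among promoter peaks alone, Cdkn2b turned to 2.64 and Cdk6 to 1.88 points. The median of -7.95 compares with -9.52 over all coding genes. Trp53 and Cdkn2b stood below that median and the other 5 genes above it. The Tnm2 list with UNC0638 also held the fewest peaks of the 4, and the part of that in these differences was not tested.

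Between the lines with DMSO, the best promoter peaks of the 3 kinase inhibitors had the largest rank differences, each lower in Tnm2. The differences, Tnm2 minus CK1750, were -29.8 points for Cdkn2b, -16.4 for Cdkn2a and -15.5 for Cdkn1a, while the other 6 genes with a peak lay between -2.63 and 4.77. In that range the best Rb1 peak was at the main start in CK1750 and at the intronic element in Tnm2. At the main start Rb1 differed by -9.62 points, and its intronic element stood at percentiles 78.2 and 89.5. The Cdk6 peak over the main start stood at 98.8 in CK1750 and 83.7 in Tnm2. With equal numbers of peaks per list the 3 inhibitor differences were -51.9, -32.4 and -28.6 points, and by width in place of score they were -23.3, -5.72 and -15.1, which left 2 genes past 10 points. The reference gene Gapdh stood at 80.2 in CK1750 and 52.1 in Tnm2 with DMSO. By score, 3 of 9 genes were at least 10 points lower and 0 were as much higher, where 17% of coding genes were lower and 12.9% higher. The medians were -1.11 over the 9 genes and -0.13 over all coding genes. The same 9 genes had a promoter peak in both lines, where 7.47% of coding genes marked in CK1750 had none in Tnm2 and 6.27% of those not marked in CK1750 had one. With UNC0638, 2 of 7 genes were at least 10 points lower in Tnm2, Cdkn2b by -43.3 and Trp53 by -25.9 points, and 0 were as much higher, where 41% of coding genes were lower and 5.35% higher. Cdkn1a and Cdkn2a were marked in CK1750 and not in Tnm2, 2 of 9 genes against 18.7% of coding genes, and no gene was marked in Tnm2 alone, against 2.6%.

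**Figure D5:**
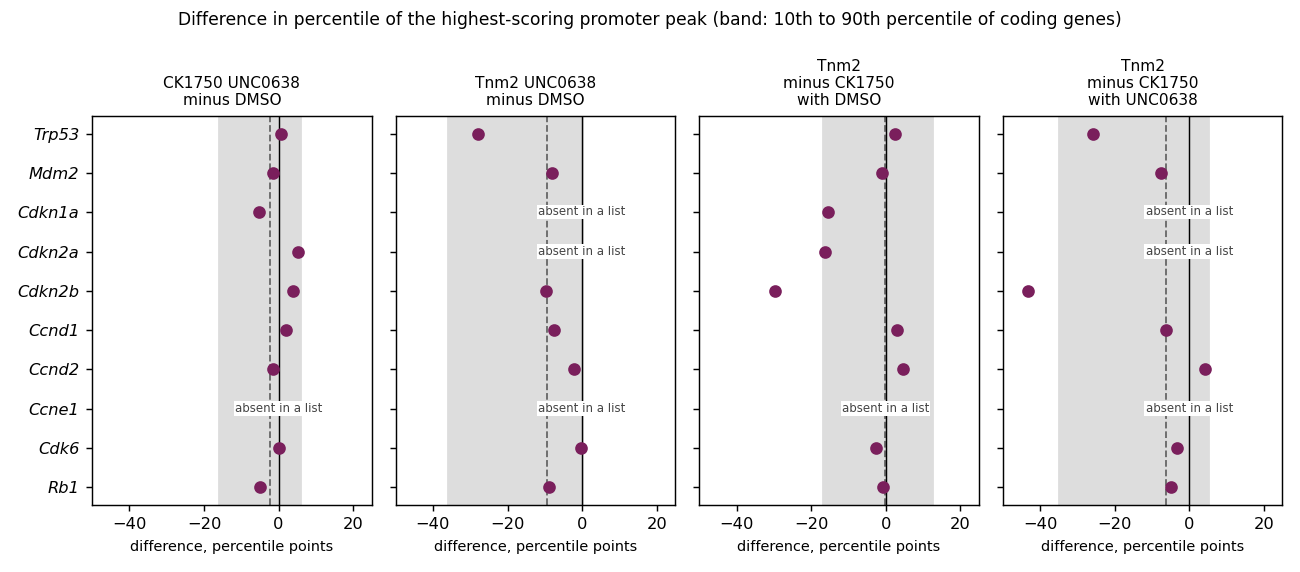
Difference in percentile of the best promoter peak for each gene, in percentile points, in the 4 comparisons. Points are genes, the dashed line is the median and the grey band the 10th to 90th percentile over coding genes with a peak in both lists; the points of the 3 kinase inhibitors lie left of the others between the lines with DMSO, and Cdkn2b lies outside the band in both line comparisons.

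Over the surroundings of all 10 genes, 51, 50, 60 and 33 peaks lay within 50 kb, covering 62.4, 72.2, 61.8 and 40.3 kb, of which 29, 28, 29 and 16 were distal. Joined across lists they made 72 regions, of which 25 were in 4 lists, 10 in 3, 9 in 2 and 28 in 1. With equal numbers of peaks per list the peaks within 50 kb numbered 37, 38, 38 and 33. With UNC0638, 10 of 48 CK1750 regions of the DMSO list were absent, against 23.3% of regions joined in the same way over the genome, and 9 of 24 others were gained, against 33.1%. In Tnm2 24 of 51 were absent, against 43.4%, and 3 of 21 others were gained, against 15.5%. Each of these counts was near its genome-wide share. Outside the genes' own promoters, 10 of 37 CK1750 regions and 16 of 35 Tnm2 regions were absent. No genome-wide share was computed for regions outside promoters, so these 2 counts stand without a comparison. The Cdkn2a and Cdkn2b windows overlap, and their shared peaks were counted once.

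The wider pathway was described with lists of 79 genes, these 10 included. Promoter peaks were at 67, 67, 66 and 46 of the 79, with 45 in all 4 lists and 8 in none. With equal numbers of peaks per list these counts were 61, 64, 57 and 46. Of the 69 other genes, 18 of 57 (31.6%) lost their promoter peak in Tnm2 with UNC0638 and 2 of 58 (3.45%) did in CK1750, where the shares over all coding genes were 17.7% and 4.85%. In Tnm2 with DMSO the median percentile was 65.3 over these 57 genes, against 77.3 over coding genes with a promoter peak. The part of this lower rank in the Tnm2 losses was not tested. By role, the Tnm2 losses were 2 of 5 kinase inhibitors, 3 of 7 G1 cyclins and kinases, 4 of 9 genes of S, G2 and M phase, 2 of 12 pocket proteins and E2F factors, 2 of 12 p53 family members and regulators and 8 of 23 p53 target genes, some genes standing in more than 1 list. Cdkn1a and Cdkn2a shared their presence pattern with 14 other pathway genes, so that 16 of the 79 held the pattern that 5.99% of coding genes held. That share is over all coding genes, 46% of which had no promoter peak in any list. Among them were Cdk2, Cdk4 and Ccne2, the kinases and the second cyclin E of the G1 to S step, and the p53 targets Plk2, Sesn1 and Aen. Ccne1 shared its absence with Bub1, Cdkn1c, Cdkn2d, E2f8, Eda2r, Sesn2 and Trp63.

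Among the 5 kinase inhibitor genes with a promoter peak under DMSO in both lines, 4 ranked at least 10 points lower in Tnm2. The share over all coding genes with a peak in both was 17%. Besides Cdkn1a, Cdkn2a and Cdkn2b the lower genes included Cdkn2c, which encodes p18Ink4c, at percentiles 93.2, 89.9, 74.2 and 64.1. The exception was Cdkn1b, which encodes p27, at 93.0, 96.8, 97.1 and 91.9. Cdkn2c and Cdkn1b were named after their values were seen. The median difference over the 5 was -16.4 points, against -0.13 over all coding genes. Cdkn1a, Cdkn2a and Cdkn2b are among the 5, so this median in part repeats values given above. Lower ranks in Tnm2 with DMSO were not particular to kinase inhibitors. Of 22 p53 target genes, Cdkn1a included, 9 were at least 10 points lower and 0 as much higher, with a median of -6.35 points. Of 62 genes of all pathway lists, 18 were lower and 2 higher by as much.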

How the data were processed

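H3K27ac ChIP-seq was done by the authors in CK1750 and Tnm2 cells. Per the study's methods, the authors mapped reads to mm10 with Bowtie2 and called modified regions at P below 1e-05 with MACS 1.4.2; SAMtools is also in the submitters' processing notes. The deposited lists give a position and a score for each peak, where the score is minus 10 times the base-10 logarithm of P. The labels tie 9 samples to 4 lists, 1 merged list per group; which libraries and which control entered a list is not given in the sources used here.

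Peaks were overlapped by at least 1 bp with windows of 2.5 kb on each side of every GENCODE M21 start (132666 start positions of all genes) and of 50 kb on each side of each gene. Ties in score took their mean rank. A difference of 10 percentile points or more was counted as a shift, a size chosen for description. All 10 genes are named, with the pathway genes whose presence differs between lists or that have no promoter peak, at most 10 per pattern ordered by highest score, the neighbors of genes without a promoter peak, and Gapdh. The genes and lists were chosen with earlier results of these data known. Cell type markers were 6 epithelial, 6 lung, 4 blood, 3 endothelial and 5 mesenchymal genes; promoter peaks were at 4, 4, 4 and 4 epithelial, 4, 4, 4 and 5 lung, 0, 0, 0 and 0 blood, 0, 0, 1 and 1 endothelial and 2, 2, 2 and 1 mesenchymal genes.

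No peak ended beyond a chromosome of the reference over 21 chromosomes, and 31 peaks lay on other sequences. The overlap code was tested on a simulated list with 1136 genes given a peak, of which 0 came back wrong. Python 3.11.15, numpy 2.4.6, pandas 2.3.3, matplotlib 3.10.9, pysam 0.24.0 and minimap2 2.31 were used. H3K9me2 and input DNA samples (21) were not analysed here. The alternatives tried were other windows, a score of at least 100, equal numbers of peaks per list, coding transcripts only, peak midpoints, ranks among promoter peaks and peak width in place of score.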

Additional observations from a re-analysis of the deposited data

How the results depend on the processing

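Of 136 values recomputed under alternative settings for 28 results, 24 moved past the limits set for them. Members with a promoter peak stayed at 9, 9, 9 and 7 under each setting but 2: a score of at least 100 left 6 in Tnm2 with UNC0638, without Cdkn2b, and the start of the representative transcript, chosen after seeing the data, gave 8, 8, 8 and 7, because that of Cdkn1a is its first start. Ranked among the best promoter peaks of coding genes, the medians were 66.4, 69.8, 72.0 and 67.3, and genes at least 10 points higher numbered 2 in CK1750 with UNC0638 and 1 in Tnm2 against CK1750 with DMSO. With 18794 peaks per list, 1 gene was that much higher in CK1750 and 1 in Tnm2 with UNC0638, the latter Cdkn2b, whose difference turned from -9.71 to 21.1 points, and Trp53 differed by -14.7 points. With width in place of score, genes at least 10 points lower numbered 3 in CK1750 and 4 in Tnm2 with UNC0638 and 4 in Tnm2 against CK1750 with UNC0638, and 1 gene was higher between the lines under each treatment. Peaks near the genes numbered 26, 28, 34 and 17 within 10 kb, 79 in CK1750 with DMSO and 52 in Tnm2 with UNC0638 within 100 kb, 33, 32, 38 and 21 at a score of at least 100, and 37, 38, 38 and 33 at equal numbers, where the main numbers were 51, 50, 60 and 33. In Tnm2 against CK1750 with DMSO the number of genes at least 10 points lower was 2 by width in place of 3. Of the single-gene differences, 12 changed sign under at least 1 setting (15 values), each below 10 points at first. No paired analysis was possible because each list pools its group, and for that reason no replicate could be left out. Depth is unknown, so an absent peak means only that none passed the cutoff.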

Other observations

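Of the 14 genes listed for S phase, G2 and mitosis, 12 had a promoter peak in CK1750 with DMSO, and 4 of these had none in Tnm2 with DMSO, against 7.47% of coding genes: Ccna2 and Ccnb2 (cyclins A2 and B2), Aurkb (Aurora kinase B) and Plk1 (a mitotic kinase). Their scores in CK1750 with DMSO were low, at 61.5, 68.9, 79.5 and 88.1, all below 100, so that none of the 4 counted as marked at a score of at least 100 in that list. Cdc25c was marked in Tnm2 and not in CK1750 with DMSO. The 8 genes marked in both went in both directions, with a median difference, Tnm2 minus CK1750, of 5.01 points. Of the 8, 2 stood at least 10 points higher in Tnm2 and 1 at least 10 points lower. Ccna2, Ccnb2 and Aurkb also had a peak in CK1750 with UNC0638, as did the checkpoint kinase gene Chek1 of the p53 list, whose peaks were likewise in the CK1750 lists alone. These are values of 1 list per group with no test.

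Presence patterns other than these were each held by 1 or 2 pathway genes. Fas, a death receptor and p53 target, had a promoter peak in Tnm2 with DMSO alone, at percentile 55.9, as did the phosphatase gene Cdc25c at 14.2. Rbl2, which encodes the pocket protein p130, had one in CK1750 with UNC0638 and in Tnm2 with DMSO, at percentiles 44.1 and 46.3. Ddb2, a DNA damage recognition gene, had one in both DMSO lists, at 37.3 in CK1750 and 5.32 in Tnm2. Trp53bp1 had one in every list but CK1750 with DMSO, at 31.9, 13.6 and 20.3.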
